A study of Mus musculus with 6 samples.

Results

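The 10 genes described here encode transcription factors of mesenchymal cells, Prrx1, Prrx2, Twist1, Twist2, Osr1, Tbx15, Nr2f2, Hand2, Tcf21 and Snai2, out of 18193 named genes on the array. They were taken by name with every probe set annotated to each gene alone, which gave 25 of 45037 probe sets. Total RNA from mouse cells was labelled with biotin and hybridised to 1 oligonucleotide array per sample. The groups were the SV40-transformed line FL-Y, which has features of follicular dendritic cells (FDC), after activation with an antibody to the lymphotoxin beta receptor (1 array), FL-Y without it (1 array), FDC cultured in vitro (2 arrays) and bone marrow-derived dendritic cells, BMDC (2 arrays). The labels give no strain, age, tissue of origin of the FDC, dose or time of the antibody. FL-Y is a single transformed line, and each of its conditions was measured once, so its values have no replicate check. The labels do not say whether the FDC or the BMDC of a pair were grown from different animals or cultures. The p-values therefore cover only how far these samples lay apart, which may be technical.

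Mesenchymal cells take their identity from transcription factors that are active in embryonic connective tissue and persist in adult fibroblasts. Prrx1 and Prrx2 are paired-type homeodomain proteins of limb and facial mesenchyme. Twist1, Twist2, Hand2 and Tcf21 are basic helix-loop-helix (bHLH) proteins that bind E-boxes as dimers with broadly expressed E proteins. Osr1 and Snai2 are zinc finger proteins, Tbx15 is a T-box protein and Nr2f2 is an orphan nuclear receptor also called COUP-TFII. FDC belong to the stroma of B cell follicles and display antigen there, while BMDC are hematopoietic antigen-presenting cells. Cell number and RNA per cell cannot be told apart in such bulk samples.

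Promoters of the members that held one of the sequences their own families bind are shown to place the genes. RefSeq promoters (GRCm38.p6, 250 bases before to 50 bases after the transcription start) were given for 7 of the 10 members. Capitals mark CANNTG, the E-box bound by bHLH proteins, and TAATTA, a core that homeodomain proteins bind, on either strand.
Prrx1, chr1:163313601-163313900, minus strand: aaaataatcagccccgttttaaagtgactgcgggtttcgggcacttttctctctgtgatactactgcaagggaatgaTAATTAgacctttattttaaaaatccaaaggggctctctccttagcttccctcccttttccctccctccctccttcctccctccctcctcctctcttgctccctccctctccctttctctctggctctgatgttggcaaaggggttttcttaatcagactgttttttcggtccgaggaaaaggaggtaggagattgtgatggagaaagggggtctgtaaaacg
Hand2, chr8:57320733-57321032, plus strand: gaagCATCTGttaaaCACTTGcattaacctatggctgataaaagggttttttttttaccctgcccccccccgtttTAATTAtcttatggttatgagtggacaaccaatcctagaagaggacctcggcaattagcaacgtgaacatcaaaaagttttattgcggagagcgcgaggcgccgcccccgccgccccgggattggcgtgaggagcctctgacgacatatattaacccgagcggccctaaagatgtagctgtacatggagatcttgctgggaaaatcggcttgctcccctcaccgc
Nr2f2, chr7:70366697-70366996, minus strand: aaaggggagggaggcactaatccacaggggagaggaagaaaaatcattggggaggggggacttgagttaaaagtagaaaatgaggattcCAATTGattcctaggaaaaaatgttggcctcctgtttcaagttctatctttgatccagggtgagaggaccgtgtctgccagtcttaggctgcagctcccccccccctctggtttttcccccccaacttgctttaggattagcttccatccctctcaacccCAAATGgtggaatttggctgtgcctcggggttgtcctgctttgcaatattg
TAATTA began 173 bases before the start of Prrx1 and 175 bases before that of Hand2, and 5.29% of all 32851 promoters of this length held it. The E-boxes of Hand2 began 246 and 235 bases before the start. Those of Nr2f2 began 161 bases and 1 base before it, so the latter spans the start. An E-box was present in 2 of the 7 member promoters, beside 72.3% of all promoters. Of the 6 motifs searched on both strands, CAGGTG, the E-box form that Snai2 binds and a subset of CANNTG, was in 0 of 7 member promoters and in 20.2% of all. CATATG, the E-box form bound by Twist proteins and also a subset of CANNTG, was in 0 of 7 and in 3.91% of all. AGGTCA, the half-site of nuclear receptors, was in 0 of 7 and in 16.3% of all. TATAAA, the sequence of a TATA box read here at any place in the window, began 126 bases before the start of Twist1, 1 of 7, and was in 13.6% of all. These matches are descriptions of this window and say nothing about binding, and the promoters shown were picked for holding a match.

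Signals are in linear array units, and the deposited values of every array had a trimmed mean of 500. Differences are given on the scale of log2(signal + 14.2), which understates the change of dim genes, and the offset is the median of the 20th percentiles of the arrays (8.7 to 15.4). That percentile served as a mark of background and is not a measured limit of detection. Median signals were 47.8 in activated FL-Y, 60.9 in FL-Y, 82.3 and 79.4 in FDC and 76.2 and 84.1 in BMDC. Each gene was read by its brightest probe set over the 6 arrays, and the other probe sets are given beside it.

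The labelled cell types were checked against marker genes. All 10 leukocyte markers, led by Itgax, H2-Aa, Tyrobp and Csf1r, were lower in FDC on limma's test, with summed signals of 386.6 in activated FL-Y, 497.5 in FL-Y, 3411 and 2169 in FDC and 271267 and 198242 in BMDC. Of 12 stromal markers 6 were higher in FDC and 0 lower, led by Dcn, Col3a1, Col1a1 and Col1a2. Pdgfra, a receptor of mesenchymal cells, had signals of 3167 in activated FL-Y, 1708 in FL-Y, 4883 and 2199 in FDC and 54.3 and 5.9 in BMDC. Of 9 FDC markers 0 were called higher and 2 lower in FDC than in BMDC (Fcgr2b and Mfge8), and FDC is used here as the name the labels give. Vcam1, an adhesion molecule of stromal cells, had signals of 6959 and 5764 in FDC, against 108.4 and 874.7 in BMDC, a difference of 4.27 that did not pass (limma, adjusted p = 0.0566). Cxcl13, a B cell chemokine made by follicular stroma, had 1288 and 64.5 in FDC, against 50.9 and 36.4 in BMDC (2.48; limma, adjusted p = 0.331). Cr2, the complement receptor that marks mature FDC, had signals of 119.5 and 4.1 in FDC, against 59.1 and 71.1 in BMDC. Markers of T cells and mast cells were also present with the FDC, where 6 of 8 were called higher, led by Tpsab1, Mcpt4, Cd3d and Tpsb2. Their sums were 164.5 in activated FL-Y, 267.4 in FL-Y, 6858 and 7129 in FDC and 2974 and 559.3 in BMDC, and their part in the member signals was not tested. Of 10 endothelial markers 0 were higher and 2 (Vwf and Pecam1) lower in FDC, with sums of 220.6 in activated FL-Y, 284.3 in FL-Y, 503.4 and 757.2 in FDC and 5179 and 2456 in BMDC. Of 8 smooth muscle and pericyte markers 2 (Tagln and Acta2) were higher and 0 lower in FDC. Their sums were 59492 in activated FL-Y, 90370 in FL-Y, 19268.5 and 62748 in FDC and 698.4 and 614.1 in BMDC. The member sums were 18409 in activated FL-Y, 22565 in FL-Y, 16891 and 17259 in FDC and 348.1 and 331.6 in BMDC. Both sums were lowest in BMDC, and that of the muscle and pericyte markers differed more between the FDC arrays. Cnn1, Myh11 and Cspg4 differed by 4.59, 0.44 and 1.96 and did not pass (limma, adjusted p = 0.135, 0.575 and 0.131). Cnn1 had signals of 107.3 and 2955 in FDC and 16708 in FL-Y. Des, Rgs5 and Mcam lay below the filter, with differences of -0.90, -0.44 and -0.80. The part of these markers in the member signals was not tested. Of 6 mesothelial markers 1 was tested, Krt19, which did not pass (4.02; limma, adjusted p = 0.104). Krt19 had signals of 741.7 in activated FL-Y, 2538 in FL-Y, 177.6 and 1519 in FDC and 49.6 and 3.3 in BMDC. The sums of the mesothelial markers were 872.4 in activated FL-Y, 2604 in FL-Y, 404.2 and 1680 in FDC and 207.9 and 49.0 in BMDC.

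FDC carried most of these factors at signals well above those of BMDC. On limma's test 7 of the 10 member genes were higher in FDC and 0 were lower at an adjusted p of 0.05, beside 5.87% of the 12750 genes tested called higher and 5.4% called lower. The 3 others were Twist2, which did not pass, and Hand2 and Tcf21, which lay below the filter on low signal and were not tested. Of the 8 members tested, 6 had a mean log2 value in BMDC below the filter value, so they passed it through their FDC signals and had to differ. Over all 10 members the median difference was 4.55, beside -0.01 over all named genes. Both FDC arrays lay above both BMDC arrays for 9 members, beside 25.7% of all named genes, and for 21 of the 25 probe sets, beside 22.4% of all probe sets. Member signals in BMDC ranged between 1.8 and 100.1.

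**Figure D1:**
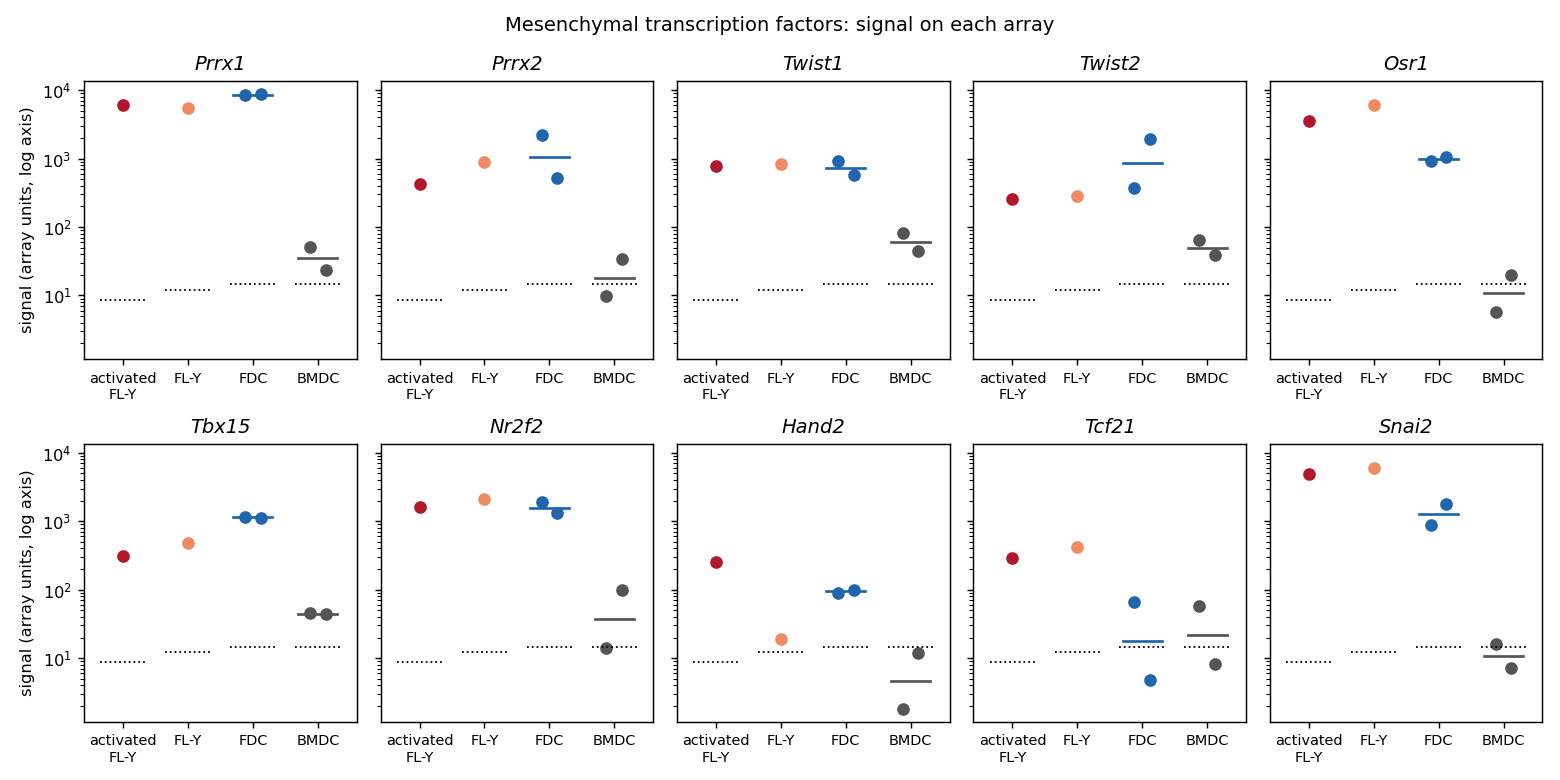
Signal of the brightest probe set of each member on each array (log axis, array units). Points are arrays, short lines are geometric means of the paired arrays, and dotted lines are the mean 20th percentile of the arrays of that group. Prrx1, Prrx2, Twist1, Twist2, Osr1, Tbx15, Nr2f2 and Snai2 stand above BMDC in FDC and in both FL-Y arrays. Tcf21 is high on both FL-Y arrays, and Hand2 is low in FL-Y and higher in activated FL-Y.

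Both paired-related homeobox genes were called higher in FDC. Prrx1 had signals of 8380 and 8874 in FDC, against 50.6 and 23.8 in BMDC. The groups were far apart and the FDC arrays nearly equal. Prrx1 averaged 8627 ± 349 in FDC and 37.2 ± 19.0 in BMDC (SD, n = 2 each), a log2 difference of 7.44 ± 0.43 (SE; limma, adjusted p = 0.00264). Of its 6 probe sets 4 were called higher in FDC. The fifth in brightness had signals of 191.7 and 312.8 in FDC, against 60 and 42.7 in BMDC, and a difference of 2.00 ± 0.43 (SE; limma, adjusted p = 0.0533). The dimmest probe set of Prrx1 was not tested, with signals of 10.2 and 49.7 in FDC and 2.8 and 48.3 in BMDC. Prrx2, the closest relative of Prrx1, had signals of 2183 and 518.7 in FDC, against 9.7 and 33.6 in BMDC. Its FDC arrays differed by 2.04 on the log2 scale but did not overlap BMDC. Prrx2 was higher in FDC by 5.0 ± 0.79 (SE; limma, adjusted p = 0.0213), and did not pass without BMDC array 1 (4.50, adjusted p = 0.0674). The Prrx2 difference was 3.98 without FDC array 1 and 6.02 without FDC array 2.

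Among the 4 bHLH members 1 was called. Twist1, needed for cranial and limb mesenchyme, had signals of 918.5 and 567.8 in FDC, against 81.3 and 44.6 in BMDC. It averaged 743 ± 248 in FDC and 63.0 ± 26.0 in BMDC (SD, n = 2 each), a difference of 3.30 ± 0.47 (SE; limma, adjusted p = 0.0165). Twist1 did not pass without FDC array 1 (2.96, adjusted p = 0.0516) or BMDC array 2 (2.95, adjusted p = 0.0657). Twist2, known from dermal fibroblasts, had signals of 373.6 and 1931 in FDC, against 64.7 and 38.4 in BMDC. The groups did not overlap, but the FDC arrays differed by 2.33. Its difference was 3.75 ± 0.82 (SE; limma, adjusted p = 0.0540), and it passed without FDC array 1 (4.92, adjusted p = 0.0147). Without FDC array 2 it was 2.59.

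Hand2, a regulator of heart, limb and sympathetic neuron development, was dim in all 4 of these arrays. It had signals of 89.7 and 99.7 in FDC, against 1.8 and 12 in BMDC. Both BMDC signals lay below the background mark, so FDC was at least 6.51-fold higher by this probe set, which was not tested. The next probe set of Hand2 had signals of 56.1 and 72.1 in FDC and 19.1 and 53.7 in BMDC, with a difference of 0.71 ± 0.49 (SE; limma, adjusted p = 0.458). Tcf21, a factor of visceral mesenchyme that is needed for the spleen, had signals of 66.7 and 4.8 in FDC, against 58.7 and 8.2 in BMDC. The groups overlapped, and 1 array of each lay below the mark. Its other probe set had signals of 26.4 and 16.1 in FDC and 80.1 and 91.5 in BMDC, and was not tested either.

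The zinc finger, T-box and nuclear receptor members were all called. Osr1, a factor of intermediate mesoderm and connective tissue progenitors, had signals of 936.5 and 1056 in FDC, against 5.8 and 20 in BMDC, a difference of 5.27 ± 0.44 (SE; limma, adjusted p = 0.00413). Its FDC arrays were close together and its lower BMDC array lay under the mark. Tbx15, a factor of limb and skin mesenchyme, had signals of 1173 and 1105 in FDC, against 45.7 and 43.8 in BMDC. Both pairs were tight, and the difference was 4.29 ± 0.37 (SE; limma, adjusted p = 0.00437). The other probe set of Tbx15 differed by 4.94 ± 0.62 (SE; limma, adjusted p = 0.0117).

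Nr2f2, which also directs vein identity in endothelium, had signals of 1882 and 1324 in FDC, against 13.9 and 100.1 in BMDC. The groups were apart, with a wide gap between the BMDC arrays. The difference was 4.81 ± 0.73 (SE; limma, adjusted p = 0.0195), and it did not pass without FDC array 1 (4.56, adjusted p = 0.0619). The Nr2f2 difference was 3.80 without BMDC array 1 and 5.82 without BMDC array 2. Of its 6 probe sets 4 were called higher, and the 3 others of these differed by 3.85, 3.79 and 3.73. Its remaining probe sets were not tested. Snai2, the repressor Slug of epithelial genes, had signals of 887.7 and 1778 in FDC, against 15.9 and 7.1 in BMDC, a difference of 5.65 ± 0.50 (SE; limma, adjusted p = 0.00468). The suffix of this probe set (_x_at) marks probes that can match other sequences. Its other probe set had signals of 83.5 and 98.7 in FDC and 16.2 and 75.0 in BMDC and did not pass (1.01 ± 0.60, SE; limma, adjusted p = 0.392). The Snai2 call therefore rests on 1 of 2 probe sets.

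Of the 18 member probe sets tested, 14 were called higher and 0 lower, beside 4.84% and 4.09% of the 27022 probe sets tested. Most of those called had a mean log2 value in BMDC below the filter value, so they passed it through their FDC signals and had to differ. The called differences lay between 3.30 and 7.44. Of the 25 probe sets 7 were not tested. Besides the brightest ones of Hand2 and Tcf21 these were 5 probe sets with signals of at most 101.2 on any array.

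**Figure D2:**
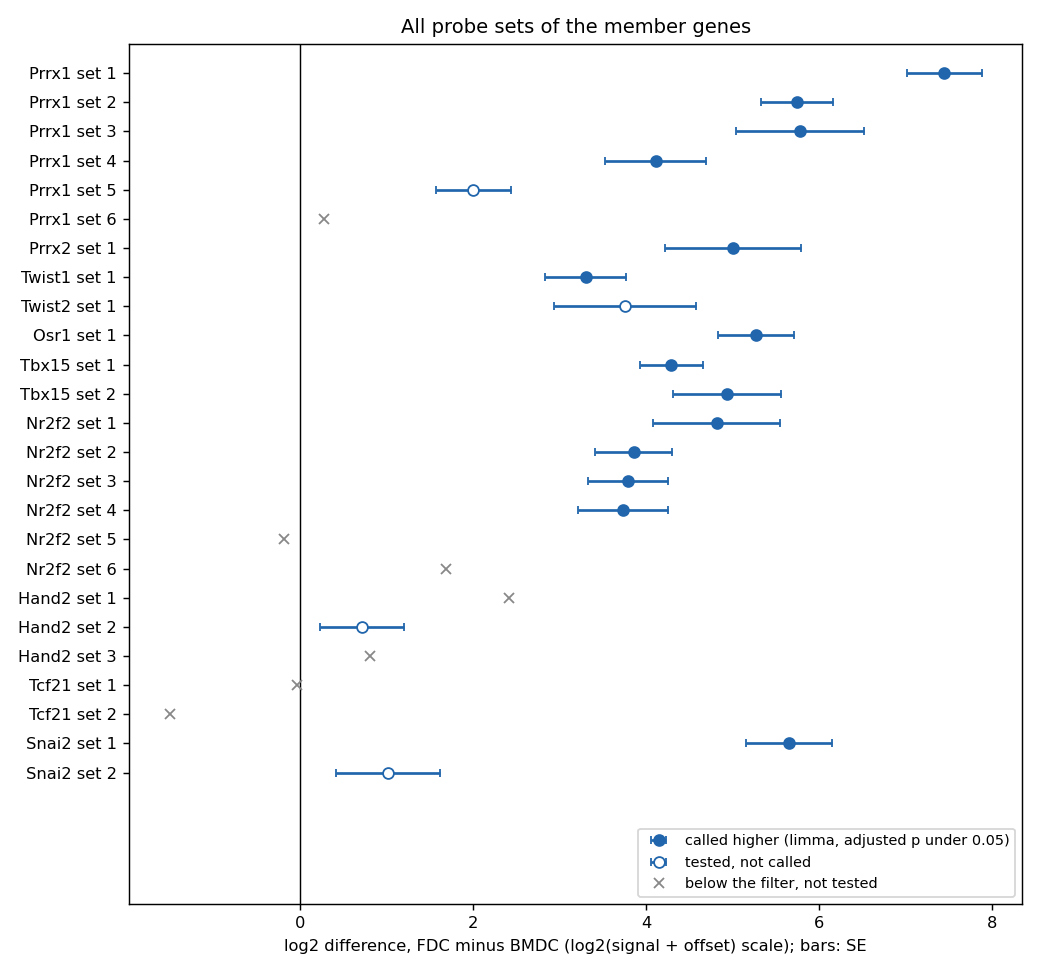
Log2 difference, FDC minus BMDC, of all 25 member probe sets, ordered by brightness within each gene. Bars are SE for tested probe sets, and crosses are probe sets below the filter. The probe sets of Prrx1, Nr2f2 and Snai2 spread widely within a gene, and the dim ones lie nearest 0.

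FL-Y also carried most of these factors. By their brightest probe sets Osr1, Snai2, Tcf21 and Nr2f2 lay above both FDC arrays. Prrx1, Twist2, Tbx15 and Hand2 lay below both, and Prrx2 and Twist1 between them. No test was made, because FL-Y had 1 array. Of the 10 members 9 exceeded BMDC in FL-Y by a log2 difference of 2 or more and 0 fell short by as much, beside 5.93% and 8.7% of all named genes. The exception was Hand2, with 18.8 in FL-Y. The count was 8 with the mean of all probe sets of a gene, where Tcf21 differed by 1.20, and 8 without BMDC array 2, where Twist2 differed by 1.93. Against the mean of the FDC arrays, 3 members were higher by at least 2 and 0 lower, beside 2.49% and 5.43% of all named genes. These were Osr1, Tcf21 and Snai2. Without FDC array 1 there were 2 higher and 1 lower, Twist2. The FL-Y minus FDC and FL-Y minus BMDC differences share the FL-Y array. The median of all named genes was -0.12 in FL-Y minus FDC and 0.20 after rescaling to one median, while that of the members was -0.03 and 0.38.

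Osr1 had a signal of 6086 in FL-Y, against 936.5 and 1056 in FDC, a difference of 2.60. Snai2 had 5919 in FL-Y, against 887.7 and 1778 in FDC, a difference of 2.22, and its other probe set had 276.4, against 83.5 and 98.7. Both probe sets of Snai2 were thus above both FDC arrays. Tcf21 had 418.3 in FL-Y, against 66.7 and 4.8 in FDC, a difference of 3.46. It was 4.51 without FDC array 1 and 2.42 without FDC array 2, and the signal of 4.8 lay below the background mark. Its other probe set had 35.1, against 26.4 and 16.1, so the level of Tcf21 in FL-Y rests on 1 of 2 probe sets. The 3 differences were larger than the gaps between the FDC arrays, which were 0.17 for Osr1, 0.99 for Snai2 and 2.09 for Tcf21. Without FDC array 1 the Snai2 difference was 1.73, under the fold of 2.

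Other members were lower in FL-Y. Twist2 had 285.8 in FL-Y, against 373.6 and 1931 in FDC, a difference of -1.53 that was smaller than the gap between the FDC arrays (2.33). It was -2.70 without FDC array 1 and -0.37 without FDC array 2. Tbx15 had 475.6 in FL-Y, against 1173 and 1105 in FDC, a difference of -1.24 that exceeded their gap. By its other probe set Tbx15 lay within the FDC range, with 1047 in FL-Y, against 1258 and 543.1. Hand2 had 18.8 in FL-Y, against 89.7 and 99.7 in FDC, a difference of -1.72. Its next probe set had 8.4 in FL-Y, which lay below the background mark, against 56.1 and 72.1 in FDC.

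Prrx1 had a signal of 5516 in FL-Y, below 8380 and 8874 in FDC, with a difference of -0.64. By its next probe sets, in order of brightness, FL-Y lay within the FDC range, with differences of -0.26, -0.23, -0.12 and -0.10. The dimmest had 60.7 in FL-Y, against 10.2 and 49.7 in FDC. With the mean of all probe sets the Prrx1 difference was -0.07, so its lower place in FL-Y rests on the brightest probe set. Prrx2 with 890.7 and Twist1 with 835.9 lay within the FDC range. Nr2f2 had 2119 in FL-Y, against 1882 and 1324 in FDC, a difference of 0.42 that was smaller than the gap between the FDC arrays. By its other called probe sets the differences were 0.63, -0.06 and -0.29. FL-Y lay above the FDC range by the first of these and within it by the others.

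Activation of FL-Y through the lymphotoxin beta receptor, which drives FDC differentiation in vivo, went with a higher Hand2 signal. Hand2 had 257.4 in activated FL-Y, against 18.8 in FL-Y, a difference of 3.04. The next probe set had 70.6 in activated FL-Y, against 8.4 in FL-Y, where it lay below the background mark. The third had 1.2, against 5.4, below the background mark on both. The activated signal of Hand2 also lay above 89.7 and 99.7 in FDC by its brightest probe set, and within the FDC range by the next. Hand2 was the 1 member at least 1 higher on the log2 scale, beside 3.75% of all named genes, and Prrx2 the 1 member at least 1 lower, beside 10.2%. With 1 array a condition these values have no replicate check. Gaps of at least 1 also separated the paired FDC arrays for 27.6% of named genes.

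Markers of sympathetic neurons, cells in which Hand2 is also known, and of glia were read beside it. Of 8 such markers 6 were on the array, and their summed signal was 480.6 in activated FL-Y and 595.9 in FL-Y. The sum was 292.1 and 929.4 in FDC and 180.7 and 441.0 in BMDC. The enzymes of noradrenaline synthesis Th and Dbh had 20.2 and 5.6 in activated FL-Y, against 42.9 and 33.2 in FL-Y. Stmn2, a neuronal tubulin-binding protein, had 173.9 in activated FL-Y, against 7.2 in FL-Y, below the mark. Tubb3, a neuronal tubulin, had 247.3 in activated FL-Y, against 426.3 in FL-Y. Their part in the Hand2 signal was not tested.

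Prrx2 had 420.3 in activated FL-Y, against 890.7 in FL-Y, a difference of -1.06. Osr1 had 3561, against 6086, a difference of -0.77. Tbx15 had 310.7, against 475.6, a difference of -0.59, and Tcf21 had 292.4, against 418.3, a difference of -0.50. Nr2f2 had 1595, against 2119, a difference of -0.41, while its other called probe sets differed by 0.80, -0.77 and -0.80. Its brightest and next probe sets thus went opposite ways. Prrx1 had 6043, against 5516, a difference of 0.13, while the mean of all its probe sets gave -0.15. Twist1 had 775.5, against 835.9, Twist2 had 253.6, against 285.8, and Snai2 had 4899, against 5919. By their brightest probe sets the members other than Hand2 and Prrx1 lay below 0, 8 in all, beside 57.8% of all named genes. After rescaling to one median, which gave all named genes a median of 0.21 in place of -0.09, 5 members lay below 0 and 5 above.

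**Figure D3:**
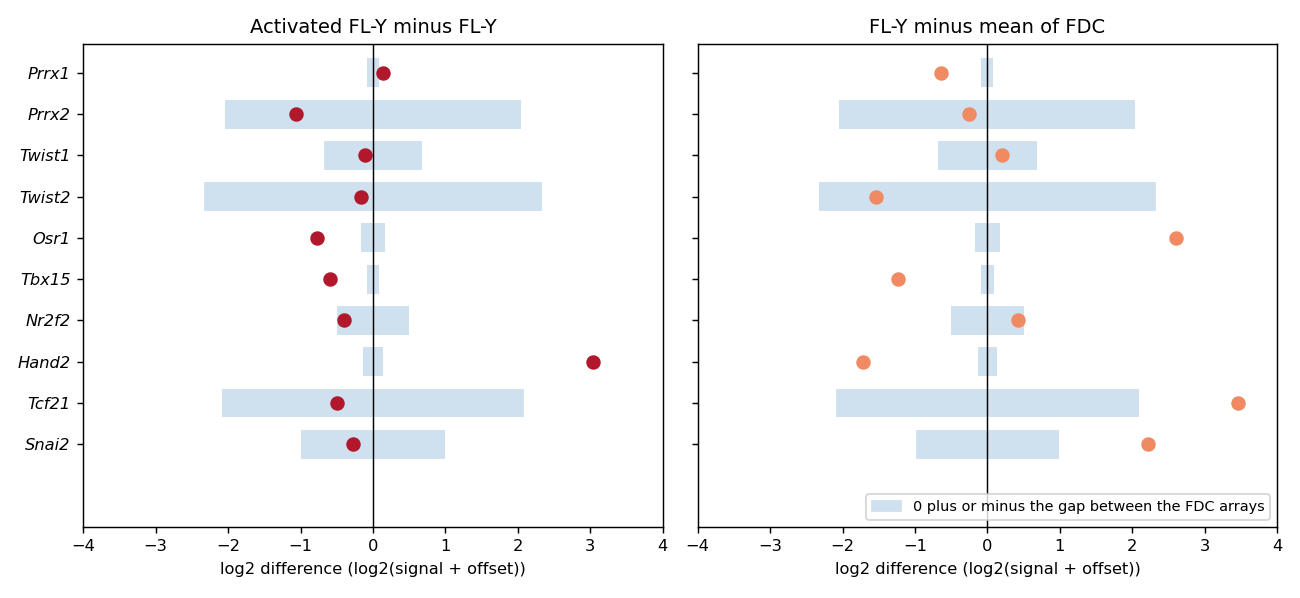
Log2 differences of each member for activated FL-Y minus FL-Y (left) and FL-Y minus the mean of the FDC arrays (right), 1 FL-Y array a condition. Each pale bar reaches from 0 by the gap between the paired FDC arrays for that gene, in both directions. Hand2 stands at 3.04 on the left, and Tcf21, Osr1 and Snai2 at 3.46, 2.60 and 2.22 on the right.

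The order of the conditions was read for each member by its brightest probe set alone, and neighbours were set against the larger gap within a replicated pair. For Prrx1, Twist1, Osr1, Nr2f2 and Hand2 the larger gap was that between the BMDC arrays, whose signals were dim. The FDC gap was 0.08 for Prrx1 and 0.17 for Osr1, smaller than any of their steps. For Prrx1, Prrx2, Twist1 and Nr2f2 the lowest place of BMDC was the 1 step that exceeded the larger gap. Activated FL-Y, FL-Y and FDC could thus not be ordered by this measure. For Twist2 no step exceeded it. For Osr1 and Snai2 the order was FL-Y and activated FL-Y, not separable, then FDC, then BMDC. For Tcf21 both FL-Y arrays stood above FDC and BMDC, which were not separable. The other probe set of Tcf21 did not give that order, since its signals of 48.4 in activated FL-Y and 35.1 in FL-Y lay below 80.1 and 91.5 in BMDC. Tbx15 ran down from FDC through FL-Y and activated FL-Y to BMDC with every step past a gap of 0.09. That gap was narrow, beside a median FDC gap of 0.55 over all named genes. Its activated FL-Y minus FL-Y difference was -0.59, and -0.26 after rescaling to one median. By the other probe set of Tbx15 FL-Y lay 0.33 above the FDC mean, within an FDC gap of 1.19, so the places of FL-Y and FDC differ between the probe sets. By that probe set activated FL-Y minus FL-Y was -0.78, also within the gap, so these were not separable. Hand2 ran down from activated FL-Y to FDC and then to FL-Y and BMDC, which were not separable. By its next probe set activated FL-Y lay within the FDC range, so the first of these steps rests on 1 probe set. By that probe set FL-Y minus FDC was -1.79, past its BMDC gap of 1.03, so the step from FDC to FL-Y held. FDC minus BMDC was 0.71, within the gap, so FDC and BMDC were not separable by it. FL-Y minus BMDC was -1.07, slightly past the gap, which put FL-Y below BMDC. The FL-Y signal of 8.4 lay below the background mark.

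The genes with profiles most like each tested member were found by the root mean square distance between log2 profiles over the 6 arrays, each centred on its own mean. The nearest to Prrx1 were Nid1 (0.23), Phldb2 (0.30) and Serpinf1 (0.33), and those to Twist1 were Dipk1b (0.17), Tspan4 (0.18) and Lamc1 (0.18). For Prrx2 they were Medag (0.29), Fbln5 (0.30) and Srpx (0.35), for Twist2 Cryab (0.40), Pi15 (0.41) and Dcbld2 (0.47), and for Tbx15 Camk2n1 (0.15), Zfp618 (0.16) and Calhm5 (0.18). For Nr2f2 they were Tmem98 (0.22), Amotl2 (0.30) and Adam12 (0.39). Osr1 and Snai2 were each among the nearest of the other, at a distance of 0.49, the smallest between any members. Myh10 was near both, at 0.32 from Osr1 and 0.56 from Snai2. The other near genes were Lurap1l (0.44) for Osr1 and Bcar1 (0.60) for Snai2.

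Close relatives of the members were listed beside them. Of 10 such genes 6 were tested, 3 were called higher in FDC and 0 lower. Shox2, a homeodomain factor of limb mesenchyme, had signals of 1898 and 1245 in FDC, against 15.8 and 8.7 in BMDC, a difference of 5.89 ± 0.43 (SE; limma, adjusted p = 0.00323). Snai1, the relative of Snai2, differed by 5.02 ± 0.69 (SE; limma, adjusted p = 0.0150). Tbx18, the relative of Tbx15, was at least 17.6-fold higher in FDC (limma, adjusted p = 0.00680), since both BMDC signals (1.4 and 7.9) lay below the background mark. Tbx18 had 1212 in FL-Y, against 272.0 and 241.6 in FDC. The median over the 10 relatives was 0.32. Nr2f1, the relative of Nr2f2, differed by 1.81 (limma, adjusted p = 0.104), and Osr2 and Hand1 were not tested.

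Partners of the bHLH members and other cofactors were read next, as 1 list. The E proteins Tcf3, Tcf4 and Tcf12 had differences of 0.20, 0.58 and 0.79 and did not pass (limma, adjusted p = 0.799, 0.505 and 0.321). Id proteins, which bind E proteins without binding DNA, went in both directions. Id3 had signals of 8520 and 5333 in FDC, against 123.8 and 5.7 in BMDC, and was higher by 7.01 ± 0.95 (SE; limma, adjusted p = 0.0143). Id2, needed for dendritic cells, had 715.6 and 602.7 in FDC, against 8243 and 11492 in BMDC, and fell by 3.86 (limma, adjusted p = 0.00686). Zfpm2, a zinc finger cofactor, and the homeodomain protein Meis2 were higher by 3.36 ± 0.43 and 4.20 ± 0.63 (SE; limma, adjusted p = 0.0120 and 0.0187). In all, 3 of the 10 genes tested from this list were higher in FDC (Id3, Zfpm2 and Meis2) and 1 was lower (Id2). None of the E proteins was among them, and the median of the list was 0.69.

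Other transcription factors of mesenchymal cells were listed in the same way. Of 40, 36 were on the array and 19 were tested, of which 6 were higher in FDC and 0 lower, with a median of 1.00 over the 36. The Hippo pathway coactivator Wwtr1 (TAZ) and its DNA-binding partner Tead1 differed by 6.0 ± 0.38 and 4.70 ± 0.39 (SE; limma, adjusted p = 0.00303 and 0.00403). Hic1 and Tbx3 differed by 3.37 and 2.82 (limma, adjusted p = 0.0187 and 0.0227). The 6 genes on the array from a list of 7 factors of spleen and lymph node stroma, Tlx1, Nkx2-5, Nkx2-3, Nkx3-2, Wt1 and Barx1, all lay below the filter. Among 14 epithelial genes and regulators 7 were tested, 1 was lower in FDC and 0 were higher. The lower one was Cdh1, the E-cadherin gene that Snai2 and Twist1 are known to repress, which had 59.0 and 34.2 in FDC, against 1356 and 1352 in BMDC, a difference of -4.52 ± 0.41 (SE; limma, adjusted p = 0.00482). Cdh1 had 2.6 in activated FL-Y and 2.7 in FL-Y, below the background mark on both.

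**Figure D4:**
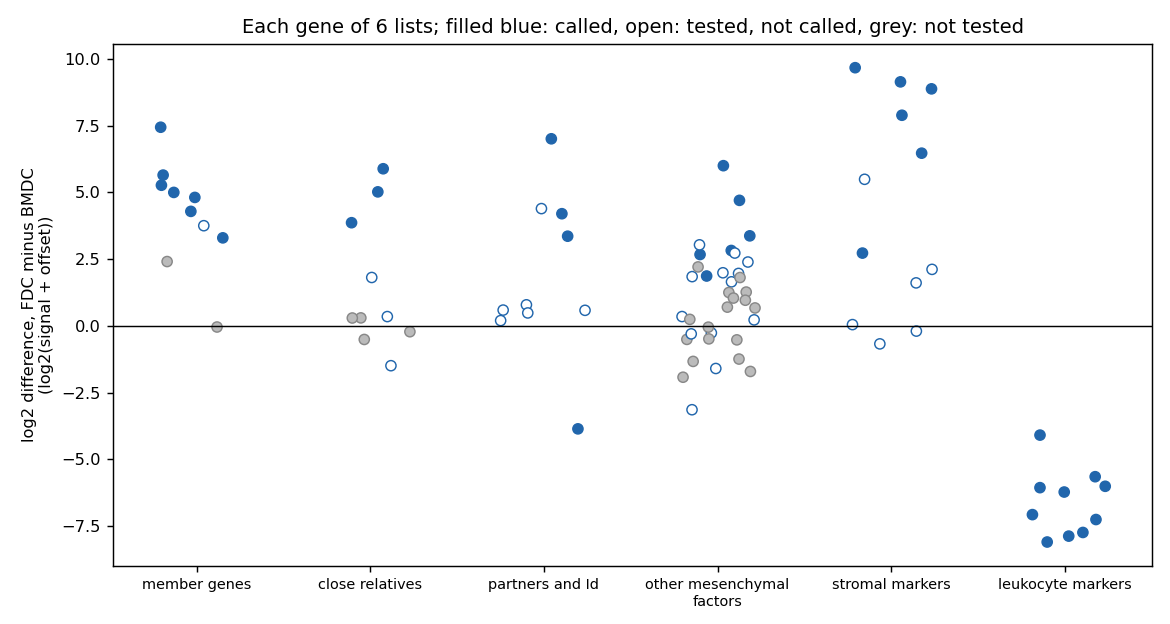
Log2 difference, FDC minus BMDC, of each gene of 6 lists. Filled blue points were called, open points were tested and not called, and grey points were not tested. The members reach 7.44 and the relatives 5.89, the partners lie on both sides of 0, the stromal markers reach 9.67, and the leukocyte markers all lie below 0.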

How the data were processed

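Per the labels, biotin-labelled total RNA of each of the 6 mouse samples was hybridised to its own array. The authors deposited linear intensity values, 1 for every probe set of an array, and the trimmed mean of every array came to 500 in them. The program, its background handling and detection calls: not given in the sources used here. The 64 control probe sets were set aside. Platform annotation gave 1 gene to 34945 probe sets and several to 932, and 9160 stay unnamed.

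Values were analysed as log2(signal + 14.2) without further scaling. The filter was the mean of these log2 values on the 4 FDC and BMDC arrays, which had to exceed its 40th percentile. That value corresponds to a signal of 46.4, but it is not a mean of signals. Probe sets above it were tested with limma 3.58.1 in R 4.3.3 (lmFit, eBayes), two-sided, with Benjamini-Hochberg adjustment over all 27022. The fit had 2 residual and 3.35 prior degrees of freedom. The test was checked on simulated data (result not reported here). A gene that did not pass may still differ between FDC and BMDC. With 2 arrays a group the smallest exact permutation p is 0.333, so that test was left out. FL-Y arrays were described without a test. Precision is limited by how few arrays there are. The members, lists and tests were chosen with earlier results of these data known. Named from each other list were up to 4 called genes with the largest difference, or the 2 largest where none was called; other names were chosen after their values were seen. Alternatives were an offset of 52.3, a floor of 3.3, quantile or median scaling, other filters, an intensity trend, all 6 arrays in 1 fit, an array-number block, leaving out each array, and the mean of all probe sets of a gene.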

Additional observations from a re-analysis of the deposited data

How the results depend on the processing

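The number of probe sets called between FDC and BMDC was 2413. It was 1454 with a floor in place of the offset and 1433 with no filter, but 3119 with the larger offset and 3118 with the intensity trend. Without 1 array it ranged between 1312 (without BMDC array 2) and 2090 (without FDC array 2), and it was 1333 without BMDC array 1. The number of member genes called ranged between 6 and 8 over all settings, 7 in the fit reported, and 0 were lower in any. Prrx1, Osr1, Tbx15 and Snai2 kept their call in all 14 alternatives. With the mean of all probe sets of a gene their sizes were smaller for Prrx1 (4.22 in place of 7.44) and Snai2 (3.33 in place of 5.65), as was that of Nr2f2 (2.95 in place of 4.81). Nr2f2 did not pass with the floor (5.40, adjusted p = 0.0614 with limma), and the cause was not tested. Twist2 passed with the larger offset (adjusted p = 0.0393), the stricter filter (0.0418), the intensity trend (0.0280) and the mean of all probe sets (0.0400). Leaving out 1 array gave differences between 3.98 and 6.02 for Prrx2, 2.95 and 3.65 for Twist1, 2.59 and 4.92 for Twist2, 3.80 and 5.82 for Nr2f2 and 5.15 and 6.15 for Snai2. With the array number as a replicate block 2392 probe sets and 7 members were called; only the number 2 is shared in the labels, and deviations of same-numbered arrays correlated at 0.199 across tested probe sets. For FL-Y minus FDC 3 members passed the fold, and 1 did (Osr1) with the mean of all probe sets of a gene, since Tcf21 then differed by 1.98 and Snai2 by 1.85. With the floor 4 did, 1 of them lower (Hand2, -2.33), and without FDC array 1 there were 2 higher and 1 lower (Twist2, -2.70). For FL-Y minus BMDC 9 passed it, and 8 did with the mean of all probe sets, with the larger offset (Twist2, 1.72) or without BMDC array 2. For activated FL-Y minus FL-Y 2 members passed it, and 1 did (Hand2) with the larger offset or median scaling. The Hand2 difference lay between 1.53 (mean of all probe sets) and 3.78 (floor). Detection calls were not used here, which limits what can be said of signals near the background mark.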

Other observations

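Foxc2, a forkhead factor of mesenchyme and lymphatic vessels named after its values were seen, had signals of 987.2 in activated FL-Y and 1026 in FL-Y, against 10.9 and 92.3 in FDC, a FL-Y minus FDC difference of 4.33. It lay below the filter in the comparison of FDC with BMDC. Id4, an inhibitor of bHLH proteins, also named after its values were seen, had 426.9 in activated FL-Y, against 1301 in FL-Y, a difference of -1.58. Its signals of 1276 and 162.5 in FDC, against 16.5 and 2.6 in BMDC, did not pass (4.39, limma, adjusted p = 0.0576). Both rest on 1 FL-Y array a condition.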
